A study of Mus musculus with 17 samples.

Results

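The mitochondrial ribosomal protein genes were taken as all genes of the expression table whose symbol starts with Mrpl or Mrps followed by a digit. The rule gave 77 genes of the 47643 listed. Another 5 symbols of this kind hold a hyphen (Mrpl23-ps1, Mrpl48-ps, Mrps36-ps1, Mrps36-ps2 and Mrps36-ps3), were left out by the rule and are listed at 0 in all 17 samples. All 77 genes passed the filter on low values, so no gene entered the tests only because it was high in 1 group.

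Messenger RNA of the diaphragm was measured in male C57BL/6J mice aged 4 months. Control mice (n = 5) carried no tumor and received mock injections. Control + rFibcd1 mice (n = 5) carried no tumor and received rFibcd1, a recombinant C-terminal part of mouse Fibcd1. The study describes Fibcd1 as a protein made by muscle, whose membrane form is cut to release a similar fragment. LLC mice (n = 3) bore tumors of Lewis lung carcinoma cells, a mouse lung cancer line implanted under the skin of both flanks, and received mock injections. LLC + rFibcd1 mice (n = 4) carried the same tumors and received rFibcd1, and all injections were made into the peritoneal cavity. The mock solution held bovine serum albumin, so all groups received injected protein, and tumor growth makes LLC mice a model of cancer cachexia in which many tissues change along with muscle.

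Mitochondria carry their own ribosome, which makes only the few membrane subunits of the respiratory chain that mitochondrial DNA encodes. All of its proteins are encoded in the nucleus, made in the cytosol and imported, and they join ribosomal RNA made in the organelle. Some descend from bacterial ribosomal proteins and others were added in mitochondria. The diaphragm contracts throughout life and is rich in mitochondria.

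By their place in the ribosome, 50 of the genes encode proteins of the large subunit and 26 encode proteins of the small subunit. Mrps30 and Mrps18a were counted with the large subunit, where their proteins sit in spite of the symbol. Mrps36 was counted with neither, since its product is now known as a component of the 2-oxoglutarate dehydrogenase complex. By the classes of the ribosomal protein nomenclature, 46 of the proteins have a bacterial homologue and 30 are specific to mitochondria, and Mrps18a and Mrps18b, which resemble bacterial S18, are named among the latter. The genes lie on 17 chromosomes of GRCm38, and 18 of the 77 (23.4%) have a protein-coding neighbour that starts within 1000 bases and runs in the opposite direction, against 9.63% of the 12181 protein-coding genes tested. Exons of 27 genes overlap an exon of a gene on the other strand, and 8 genes overlap another gene on the same strand. Whether reads were assigned by strand is not given in the sources used here, so values of these genes can hold reads of their neighbours.

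The promoters of 68 genes were found in RefSeq (GRCm38.p6), in 74 windows of 250 bases before to 50 bases after the start. These windows were searched on both strands for letters bound by factors known to act on mitochondrial genes, namely GCGCA and GCGC with any 1 base between them (NRF1), CCGGAAG (ETS factors such as GABP) and AAGATGGC (YY1). Of the 74 windows 17.6% held the NRF1 letters, 33.8% the ETS letters and 16.2% the YY1 letters, and 56.8% held at least 1 of them. Over all 32851 promoter windows of the same length these shares were 4.6%, 8.86%, 2.75% and 14.7%. Over the 12582 windows of genes tested in the diaphragm they were 9.34%, 16.1%, 4.2% and 26.3%.

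The windows of Mrps27, Mrpl9 and Mrpl45 are shown because these genes fell together in LLC mice. They are the genes with the smallest p in that comparison that have a single window with at least 1 match, and capitals mark the matches. Each reads 5′ to 3′ on the plus strand of GRCm38.p6, at chr13:99344536-99344835 for Mrps27, chr3:94443086-94443385 for Mrpl9 and chr11:97315466-97315765 for Mrpl45.
Mrps27: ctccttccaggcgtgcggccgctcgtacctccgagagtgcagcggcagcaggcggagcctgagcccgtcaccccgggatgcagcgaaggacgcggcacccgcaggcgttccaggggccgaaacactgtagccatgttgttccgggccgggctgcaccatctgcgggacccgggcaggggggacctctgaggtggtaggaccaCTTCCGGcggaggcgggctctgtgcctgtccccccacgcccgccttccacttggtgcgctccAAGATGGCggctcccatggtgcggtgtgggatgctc
Mrpl9: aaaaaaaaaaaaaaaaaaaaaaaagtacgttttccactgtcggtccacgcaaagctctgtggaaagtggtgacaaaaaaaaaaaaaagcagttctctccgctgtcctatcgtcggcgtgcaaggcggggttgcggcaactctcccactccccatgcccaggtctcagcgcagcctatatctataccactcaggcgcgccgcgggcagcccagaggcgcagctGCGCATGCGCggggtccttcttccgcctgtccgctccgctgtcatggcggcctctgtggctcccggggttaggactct
Mrpl45: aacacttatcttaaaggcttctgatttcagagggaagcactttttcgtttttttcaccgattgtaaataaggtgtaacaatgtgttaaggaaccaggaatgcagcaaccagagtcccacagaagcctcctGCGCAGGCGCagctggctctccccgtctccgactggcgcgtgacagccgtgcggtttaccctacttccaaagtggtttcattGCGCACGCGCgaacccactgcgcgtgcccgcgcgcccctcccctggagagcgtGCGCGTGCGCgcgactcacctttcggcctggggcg
The Mrps27 window held an ETS match at base -48 from the start site and a YY1 match at base 14. The Mrpl9 window held 1 NRF1 match at base -28, and the Mrpl45 window held 3 NRF1 matches, at bases -120, -38 and 15. A match describes the letters only and says nothing of binding in these mice.

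Levels are given in TPM, a unit that divides reads by gene length and by the total of the library, so that levels may be compared between genes. The summed level of the 77 genes was 4123 ± 106 TPM in Control (SD, n = 5), 4112 ± 113 TPM in Control + rFibcd1 (SD, n = 5), 3890 ± 138 TPM in LLC (SD, n = 3) and 4138 ± 95.6 TPM in LLC + rFibcd1 mice (SD, n = 4). By mouse the sum was 4014, 3915 and 3741 TPM in the LLC group. The 5 Control mice lay between 4026 and 4281 TPM, so all LLC mice were below every Control mouse. As a share of all transcripts the genes took 0.389% ± 0.0138 in LLC mice (SD, n = 3). The share was 0.414% ± 0.00952 among LLC + rFibcd1 mice (SD, n = 4).

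Single genes of the set differed widely in level. The highest was Mrpl42, a mitochondria-specific protein of the large subunit, at 475 TPM over the 17 mice. Next came Mrpl12, whose protein forms the flexible stalk that recruits translation factors and also binds the mitochondrial RNA polymerase, at 174 TPM. They were followed by Mrps21 (153 TPM), Mrpl18 (128 TPM), Mrpl14 (128 TPM), Mrps16 (119 TPM), Mrpl34 (113 TPM) and Mrpl53 (106 TPM). The lowest were all small-subunit genes, with Mrps10 at 5.07 TPM, Mrps35 at 6.9 TPM, Mrps22 at 7.35 TPM and Mrps25 at 7.63 TPM. Since TPM divides by gene length, this order depends on the annotated exons. Their length was 8079 bases for Mrps10, 8631 for Mrps35, 3991 for Mrps22 and 6576 for Mrps25. Among the highest genes named above it ran from 607 bases for Mrpl34 to 3682 for Mrpl42. The part of annotated length in the order of levels was not tested.

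The median gene stood at 42.5 TPM among large-subunit genes and at 31.9 TPM among small-subunit genes. The ranges of Mrpl42, from 400 to 516 TPM, and of Mrpl12, from 150 to 191 TPM, did not overlap over the 17 mice. Mrpl18, from 113 to 138 TPM, and Mrpl14, from 105 to 140 TPM, overlapped throughout. At the low end Mrps10 ranged from 4.7 to 5.48 TPM and lay below every value of Mrps35, from 6.18 to 7.34 TPM. Mrps35 overlapped Mrps22, from 6.24 to 7.97 TPM. Among Control mice the coefficient of variation of a gene ran from 0.663% for Mrpl30 to 10.4% for Mrps6. The limma tests below used a spread taken over all 4 groups, not that of Control mice alone.

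**Figure D1:**
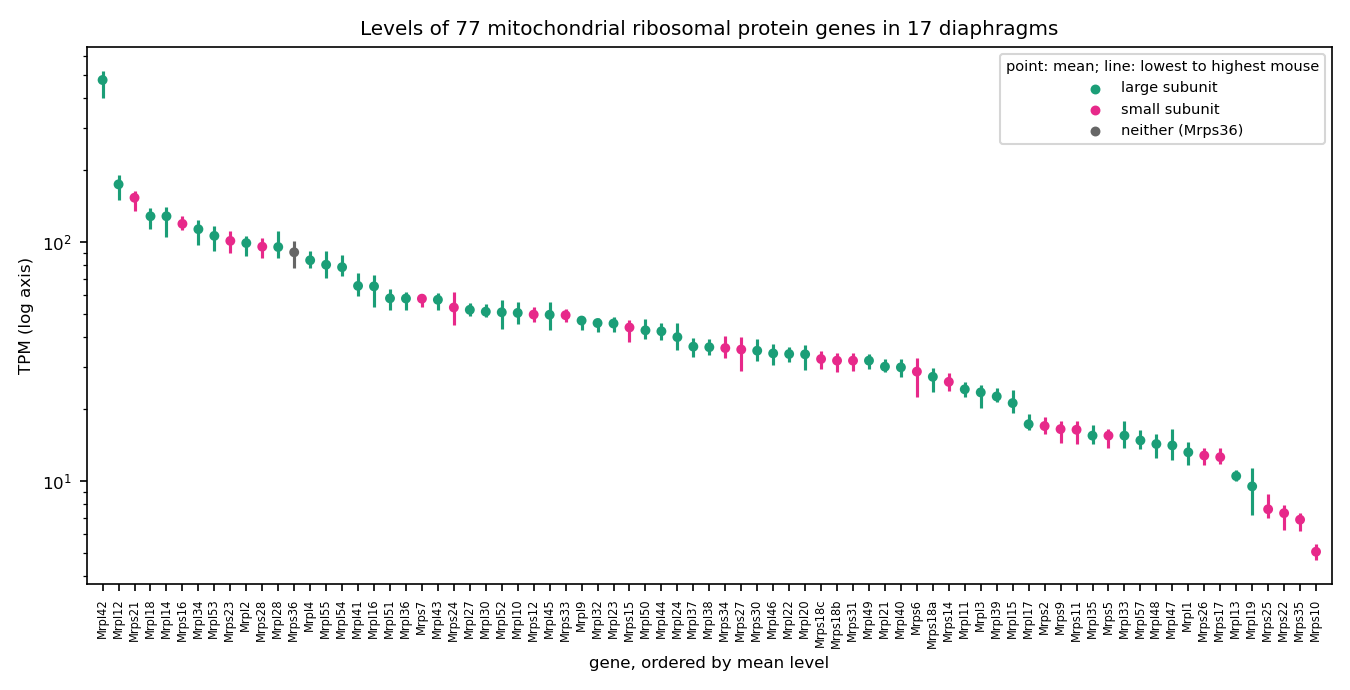
Level of each of the 77 genes in TPM (log axis), ordered by mean, with the line running from the lowest to the highest of 17 mice and colour marking the subunit. Mrpl42 stands alone at 475 TPM, and the 4 lowest genes, from Mrps25 at 7.63 to Mrps10 at 5.07 TPM, belong to the small subunit.

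The depth estimated from the deposited values was 50700000 to 54600000 reads per sample, and even the lowest of these genes rested on an estimated 638 to 822 reads in each sample. Markers of muscle fibers were high in all samples. Their sum was 63109 to 68338 TPM in Control, 61537 to 69338 in Control + rFibcd1, 53700 to 57520 in LLC and 56191 to 64800 in LLC + rFibcd1 mice, and 5 of 10 fell in LLC against Control mice. All 8 B cell markers rose in that comparison, with sums of 2.8 to 108 TPM in Control, 4.09 to 155 in Control + rFibcd1, 251 to 316 in LLC and 20.5 to 310 in LLC + rFibcd1 mice. All 7 T cell markers, 5 of 7 macrophage markers and the 4 neutrophil markers tested of 6 also rose, and the neutrophil marker Ly6g was under 1 TPM in every sample. Of the other lists, 0 of 5 white adipocyte, 0 of 5 fibroblast and 0 of 5 mesothelial markers passed, while 1 of 6 endothelial markers and the 4 proliferation markers tested of 5 rose and 1 of 5 brown adipocyte markers fell. Fibroblast marker sums still did not overlap, at 593 to 854 TPM in Control and 910 to 953 in LLC mice. White adipocyte sums were 584 to 1703 TPM in Control and 1029 to 3796 in LLC mice. Mesothelial sums were 78 to 151 and 100 to 259 TPM. Mitochondrially encoded transcripts, which share the fixed total of TPM, held 47.1% ± 1.09 in Control (SD, n = 5) and 42.9% ± 1.53 in LLC (SD, n = 3). The part of these shifts in the results below was not tested unless a value is given.

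The comparison of LLC with Control mice asks what tumor growth does to these transcripts in mock-injected mice. In LLC mice 19 of the 77 genes fell and 1 rose at an adjusted p under 0.05 (limma, Benjamini-Hochberg over all 13305 genes tested), where 6.02% of all genes fell and 29.7% rose. The falls were small, and the largest was that of Mrps27 at -0.27 on the log2(TPM + 1) scale. The median of the 77 differences was -0.05, against 0.16 over all genes tested, and 60 of the 77 lay below 0. Set against the median gene, 76 of the 77 were lower, and 71 with quantile normalization or without a filter on low values. The levels of the LLC and Control groups did not overlap in 21 of the genes, all of them lower in LLC, where 6.67% of all genes were lower and 33.6% higher without overlap. In bulk tissue fewer cells of a type and less RNA per cell cannot be told apart.

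Among large-subunit proteins with a bacterial homologue, 10 of 30 fell and 1 rose. They included Mrpl1, whose protein builds the stalk through which spent tRNA leaves, Mrpl16, which lies near the site where new tRNA is accommodated, and Mrpl18, a protein of the central protuberance. Mrpl1 (uL1m, chr5:96209493-96266727) was at 13.5, 13.4, 13.7, 14.6 and 13.8 TPM in Control and at 12.1, 12.6 and 11.7 TPM in LLC mice. All LLC mice were below all Control mice. The log2 difference of Mrpl1 was -0.18 (SE 0.0417, adjusted p = 0.0118).

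Mrpl16 (chr19:11770391-11774960) was at 66.2, 65.2, 69.2, 72.6 and 64.8 TPM in Control and at 63.4, 60.2 and 53.7 TPM in LLC mice. The groups did not overlap, although the highest LLC mouse lay only just below the lowest Control mouse, and the log2 difference was -0.19 (SE 0.0523, adjusted p = 0.0153). Mrpl18 (chr17:12911349-12916345) was at 129, 130, 132, 128 and 138 TPM in Control and at 113, 121 and 113 TPM in LLC mice, again without overlap, with a difference of -0.18 (SE 0.0487, adjusted p = 0.0148). Its exons share 141 bases with those of Tcp1 on the other strand.

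Mrpl12 (chr11:120484613-120489065), the stalk protein, was at 168, 169, 182, 170 and 190 TPM in Control and at 161, 160 and 150 TPM in LLC mice. It fell by 0.16 on the log2 scale (SE 0.0504, adjusted p = 0.0252), with every LLC mouse below every Control mouse. Its exons share 200 bases with Gm16755 on the other strand. Mrpl10, which anchors that stalk, stood at 51.7 ± 1.28 TPM in Control (SD, n = 5) and 49.8 ± 5.54 TPM in LLC mice (SD, n = 3) and did not pass on the TPM scale (difference -0.06, 95% interval -0.18 to 0.06). Mrpl10 did fall with median-ratio scaling (-0.21, adjusted p = 0.0215), without mitochondrially encoded genes (-0.17, adjusted p = 0.048), with quantile normalization (-0.22, adjusted p = 0.0182) and without LLC replicate 1 (-0.15, adjusted p = 0.0474).

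Mrpl19 (chr6:81957851-81965958) and Mrpl47 (chr3:32725397-32737605) had large but less certain falls. Mrpl19 was at 9.34, 9.3, 11.1, 10.1 and 11.4 TPM in Control and at 8.64, 8.77 and 8.61 TPM in LLC mice (log2 difference -0.21, SE 0.0782, adjusted p = 0.0451). Mrpl47 was at 14.1, 13.8, 16.5, 15.2 and 16.2 TPM in Control and at 13.1, 13.5 and 12.6 TPM in LLC mice (difference -0.20, SE 0.0625, adjusted p = 0.0261). Both pairs of groups were free of overlap, but 1962 exonic bases of Mrpl19 lie opposite Gcfc2, and 1068 of Mrpl47 opposite Actl6a and Ndufb5. The other genes of this class that fell were Mrpl2, Mrpl3, Mrpl9 and Mrpl14, with differences from -0.17 for Mrpl14 to -0.13 for Mrpl9.

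The gene that rose was Mrpl24 (chr3:87919506-87923672), a protein of the large subunit near the tunnel through which the new chain leaves. It was at 38.4, 40.8, 38.9, 35.2 and 38.9 TPM in Control and at 45.5, 40.1 and 45.7 TPM in LLC mice, and the groups overlapped. The log2 difference was 0.18 (SE 0.0679) at an adjusted p of 0.0486. It passed in 0 of 9 other settings of the fit, where the adjusted p ranged from 0.0501 to 0.965. Its exons share 594 bases with Rrnad1 on the other strand.

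Among large-subunit proteins specific to mitochondria, 5 of 20 fell and 0 rose. The leading gene was Mrpl45 (chr11:97315716-97329920), whose protein sits at the tunnel exit and ties the ribosome to the inner membrane. It was at 48.2, 47.5, 51.9, 53.3 and 55.4 TPM in Control and at 44.7, 45 and 42.9 TPM in LLC mice. All LLC mice were below all Control mice, with a log2 difference of -0.21 (SE 0.051, adjusted p = 0.0128). Mrpl42 (chr10:95480805-95501940), the highest gene of the set, was at 460, 486, 474, 480 and 516 TPM in Control and at 436, 450 and 400 TPM in LLC mice. Here too the groups did not overlap, and the difference was -0.17 (SE 0.0561, adjusted p = 0.0283). Mrpl46, Mrpl51 and Mrpl37 fell as well, by 0.16, 0.14 and 0.13 on the log2 scale.

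In the small subunit 4 of 26 genes fell and 0 rose. Mrps27 (chr13:99344786-99415562), a pentatricopeptide repeat protein, was at 35.4, 37.7, 39.9, 38.7 and 38.8 TPM in Control and at 34.6, 30.7 and 28.8 TPM in LLC mice. The log2 difference of Mrps27 was -0.27 (SE 0.0561, adjusted p = 0.00969), and the groups did not overlap. It shares 506 exonic bases with 6430562O15Rik on the other strand.

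Mrps28 (chr3:8802146-8923918) was at 101, 99.5, 103, 104 and 99.9 TPM in Control and at 90.3, 88.8 and 88.1 TPM in LLC mice. Its groups lay far apart for their spread, and the difference was -0.19 (SE 0.0387, adjusted p = 0.00969). Mrps31 fell by 0.16 and Mrps5 by 0.13 on the log2 scale, and Mrps5 was the only small-subunit gene of the 4 whose groups overlapped.

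**Figure D2:**
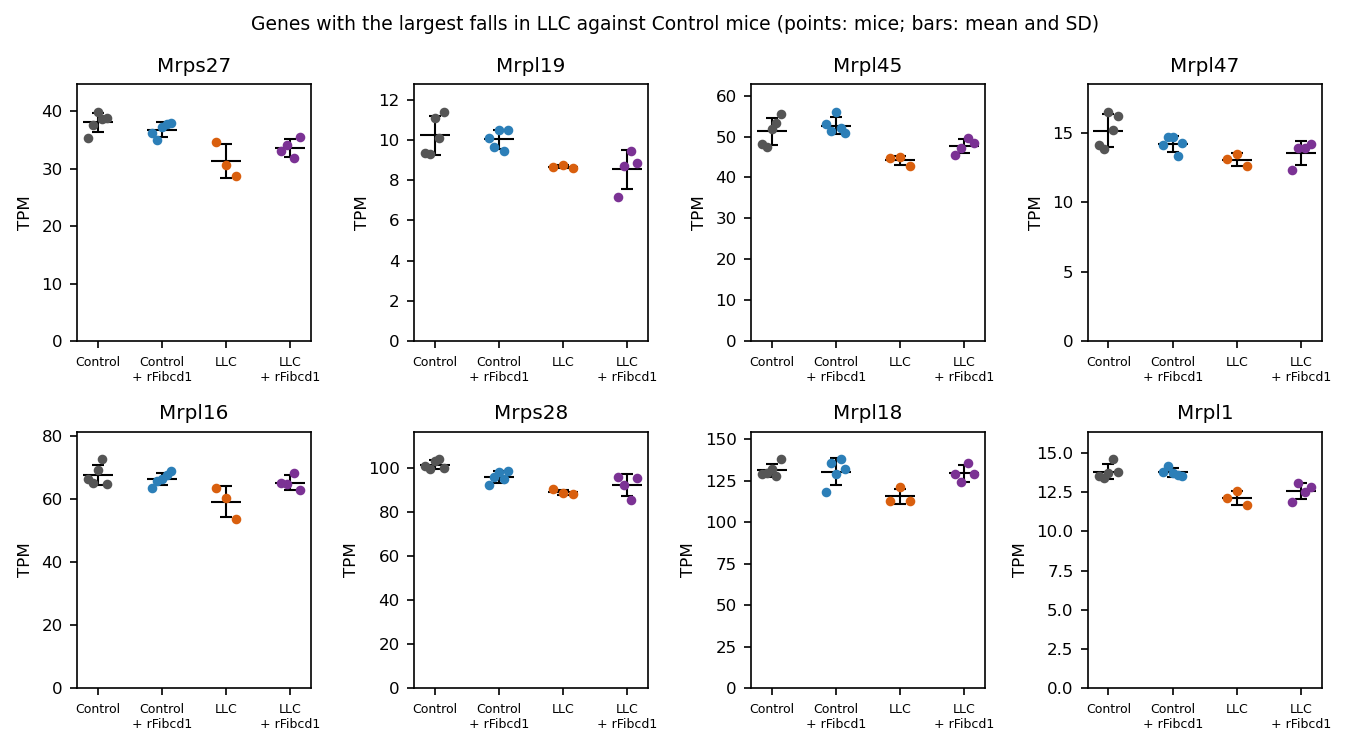
Level in TPM of the 8 genes with the largest falls in LLC against Control mice, by group, with a point for each mouse and bars for mean and SD on axes that start at 0. LLC mice lie below all Control mice in each panel, as for Mrps28 at 88.1 to 90.3 against 99.5 to 104 TPM.

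Several genes with a known role or disease link did not pass in LLC against Control mice on the TPM scale. Mrps12, a protein of the decoding center, stood at 50.4 ± 1.98 TPM in Control (SD, n = 5) and 49.4 ± 2.84 TPM in LLC mice (SD, n = 3), with a log2 difference of -0.03 (95% interval -0.14 to 0.08). The 3 genes named after bacterial S18 had differences of 0.02 for Mrps18a, 0.04 for Mrps18b and 0.02 for Mrps18c. Mrpl32, whose protein is trimmed by the m-AAA protease before it enters the ribosome, differed by -0.03 (95% interval -0.11 to 0.04).

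Mutations of Mrpl44, Mrps2, Mrps22 and Mrps34 cause mitochondrial disease in people. Their differences were -0.08 for Mrpl44, -0.01 for Mrps2, -0.05 for Mrps22 and -0.0005 for Mrps34, with adjusted p from 0.227 to 0.995 in limma. Mrps30 differed by 0.02, Mrpl57 by 0.07 and Mrps36 by -0.06, and none of these passed. A miss of the threshold does not show that a level was equal, and the interval of Mrps22, for example, reached from -0.19 to 0.1. Scaling changed some of these calls. With quantile normalization Mrpl32 (-0.19, adjusted p = 0.0188), Mrpl44 (-0.24, adjusted p = 0.0215), Mrps2 (-0.23, adjusted p = 0.0191) and Mrps22 (-0.33, adjusted p = 0.0134) fell. All 4 also fell with median-ratio scaling, and Mrpl32 and Mrpl44 without mitochondrially encoded genes. The positive values of Mrps18a, Mrps18b, Mrps18c, Mrps30 and Mrpl57 turned negative under all 3 scalings, and none of these 5 passed there.

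The count of falls rested on few mice. Without LLC replicate 3, which had the lowest summed level, 0 of the 77 genes passed, although 14 of the 77 and 792 of all genes were lower at an unadjusted p under 0.05 (24 of the 77 in the full fit, where 8.18% of all genes were lower and 40.1% higher at that level). Over all genes tested 24 passed without that mouse. Without LLC replicate 1 the count of genes passing was 12, without Control replicate 3 it was 12, and without Control replicate 5 it was 10, while 499, 596 and 580 of all genes fell. A fit that took a B cell score as covariate left 0 of the 77 genes, but also only 6 higher and 1 lower of all 13305. In it 10 of the 77 fell at an unadjusted p under 0.05, as did 599 of all genes. The median of the 77 differences was -0.05 as before, but the median over all genes went from 0.16 to 0.06. The distance of the 77 from the median over all genes thus shrank from -0.21 to -0.11. Dunn's rank test, the test used in the study, gave 0 of the 77 and 0 of all 13305 genes after adjustment. At an unadjusted p under 0.05 it gave 1 higher and 23 lower of the 77, and 4020 higher and 973 lower of all genes. With p from limma, none of the 77 reached the cutoff of the study's heatmap, against 12.7% of all genes. That cutoff is an unadjusted p under 0.05 with a change beyond 1.5 times. With p from Dunn's test 0 of the 77 reached it, against 1334 higher and 24 lower of all genes.

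Scaling moved the count the other way. TPM has a fixed total, and the median of all genes went from 0.16 on the TPM scale to 0.03 with median-ratio scaling, 0.07 with values rescaled without mitochondrially encoded genes, and -0.10 with quantile normalization. With these scalings 40, 35 and 55 of the 77 genes fell and 0 rose, while the falls among all genes tested also became more, at 1703, 1465 and 3175 against 801 on the TPM scale. Under them the median of the 77 was -0.20, -0.16 and -0.23. Of all genes that passed, 83.2% were higher in LLC mice on the TPM scale, 57.8% with median-ratio scaling, 62.9% without mitochondrially encoded genes and 32.2% with quantile normalization. The direction of the set's median was the same in all 4, while the call for Mrpl24 was lost in the 3 alternatives.

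**Figure D3:**
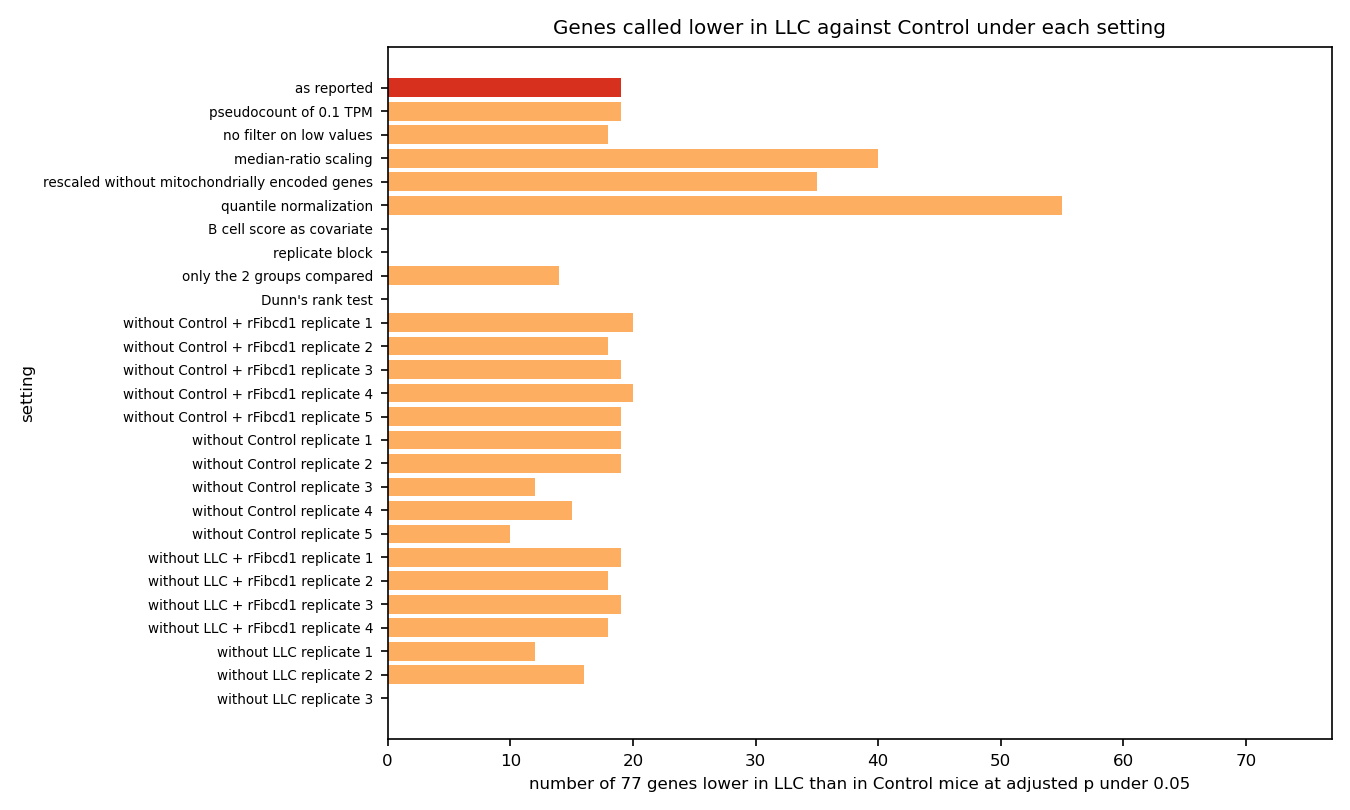
Number of the 77 genes that were lower in LLC than in Control mice at adjusted p under 0.05, in the reported fit (19) and under each other setting. The count is 0 with the B cell score, the replicate block, Dunn's test or without LLC replicate 3, and reaches 55 with quantile normalization.

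Other gene families moved by different amounts in the same mice. Of 85 cytosolic ribosomal protein genes 80 rose and 1 fell in LLC against Control mice, with a median of 0.41 and of 0.26 to 0.30 under the 3 other scalings. Of 82 nuclear genes for respiratory chain subunits 63 fell and 1 rose, with a median of -0.18 and of -0.34 to -0.28 under the other scalings. The median of the mitochondrial ribosomal protein genes, at -0.05, lay between these families. Without LLC replicate 3 the medians were 0.36 for cytosolic ribosomal proteins, -0.14 for respiratory chain subunits and -0.03 for mitochondrial ribosomal proteins, and 0, 1 and 0 genes of these families passed. In the fit holding a B cell covariate 0 genes passed in each, at medians of 0.15, -0.13 and -0.05. No test of the difference between families was made.

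**Figure D4:**
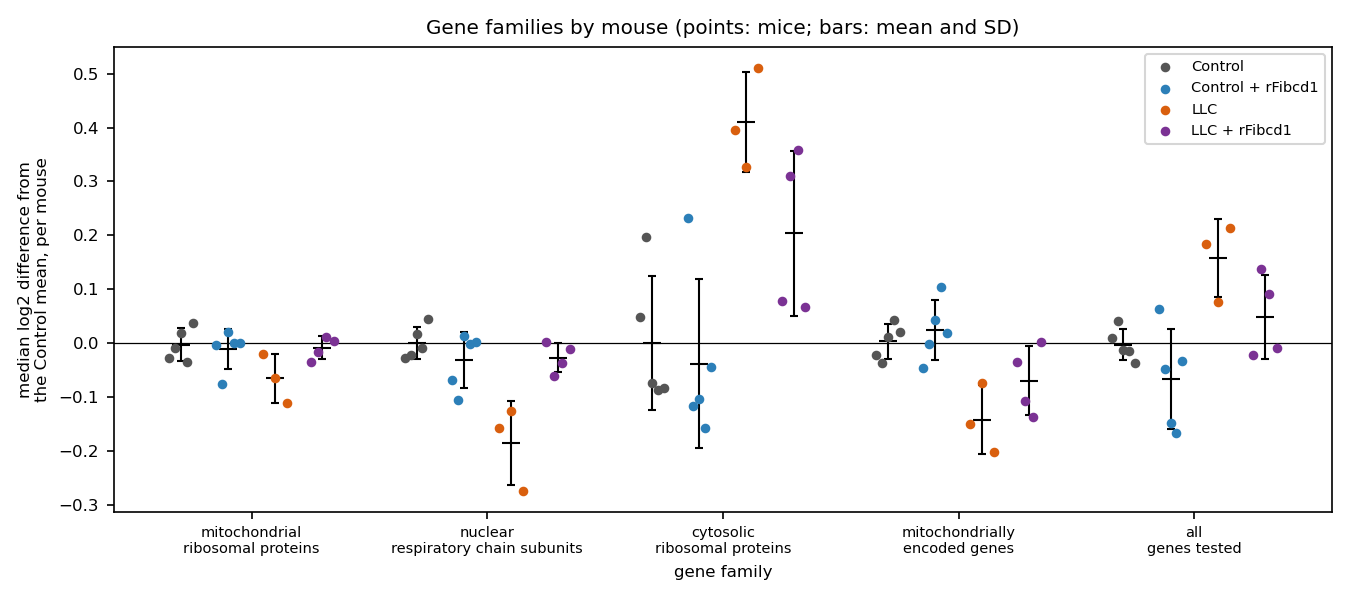
Median over the genes of a family of the log2 difference from the Control mean, with a point for each mouse and bars for mean and SD. Mitochondrial ribosomal proteins average -0.07 in LLC mice, between respiratory chain subunits at -0.19 and cytosolic ribosomal proteins at 0.41.

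The comparison of LLC + rFibcd1 with Control + rFibcd1 mice repeats the tumor contrast in mice that share no animal with the first. Here 0 of the 77 genes passed (limma), with 7 higher and 7 lower at an unadjusted p under 0.05, where 7.02% of all genes rose and 1.04% fell at an adjusted p under 0.05 and 24.9% were higher and 3.55% lower at an unadjusted one. Dunn's rank test also gave 0, with 8 higher and 2 lower at an unadjusted p under 0.05, where 2256 of all 13305 genes were higher and 337 lower. The median of the 77 was -0.0013, against 0.11 over all genes, and 70 of the 77 were below the median gene. That number was 53 without a filter on low values, 58 with the B cell score, 63 with quantile normalization and 63 to 75 with 1 mouse left out. The even balance of 7 and 7 holds on the TPM scale. At an unadjusted p under 0.05, 0 were higher and 27 lower with median-ratio scaling, 1 and 18 without mitochondrially encoded genes, and 0 and 25 with quantile normalization. All genes then split into 1480 higher and 1434 lower, 2111 and 904, and 1084 and 1816. These scalings gave a median of the 77 of -0.12, -0.07 and -0.11 and 2, 2 and 1 genes that passed. Over all genes 274 rose and 305 fell, 384 and 197, and 183 and 284, against 934 and 138 on the TPM scale. Without Control + rFibcd1 replicate 1, 2 of the 77 passed, where 2659 of all genes rose and 234 fell. The number was 1 without Control + rFibcd1 replicate 4, where 484 of all genes rose and 111 fell. It was 1 without Control replicate 2, where 903 rose and 138 fell. It was also 1 without LLC + rFibcd1 replicate 4 or LLC replicate 2.

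Of the 19 genes that fell in LLC against Control mice, 18 were below 0 in the rFibcd1-injected mice and 7 of these had an unadjusted p under 0.05, the level at which 3.55% of all genes were lower. The exception was Mrpl14, at 0.10. Their median was -0.17 in mock-injected mice and -0.06 in rFibcd1-injected mice. Over all 77 genes 36 were lower and 13 higher in both contrasts, 24 were lower only in LLC against Control and 4 lower only in the rFibcd1-injected mice. Across the 77 genes the differences had a Pearson r of 0.655 and a Spearman rho of 0.629, given as a description since genes of 1 mouse are not independent.

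The smallest p-values of this contrast belonged to Mrpl52, Mrpl28, Mrpl1 and Mrpl33, none of which passed. Mrpl52, a mitochondria-specific large-subunit protein, was at 52.3, 43.1, 47.1, 43.7 and 48.1 TPM in Control + rFibcd1 and at 51.6, 57.1, 57 and 51.3 TPM in LLC + rFibcd1 mice (log2 difference 0.21, SE 0.0628, adjusted p = 0.0535). Only the highest Control + rFibcd1 mouse overlapped the other group. Mrpl1 was at 13.8, 14.2, 13.7, 13.6 and 13.5 TPM in Control + rFibcd1 and at 11.9, 13.1, 12.5 and 12.8 TPM in LLC + rFibcd1 mice, with no overlap (difference -0.12, SE 0.0383, adjusted p = 0.0604). Mrpl1 therefore lay below its tumor-free group in both pairs of groups. Mrpl28 differed by 0.15 and Mrpl33 by 0.15, with adjusted p of 0.0548 and 0.0656.

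**Figure D5:**
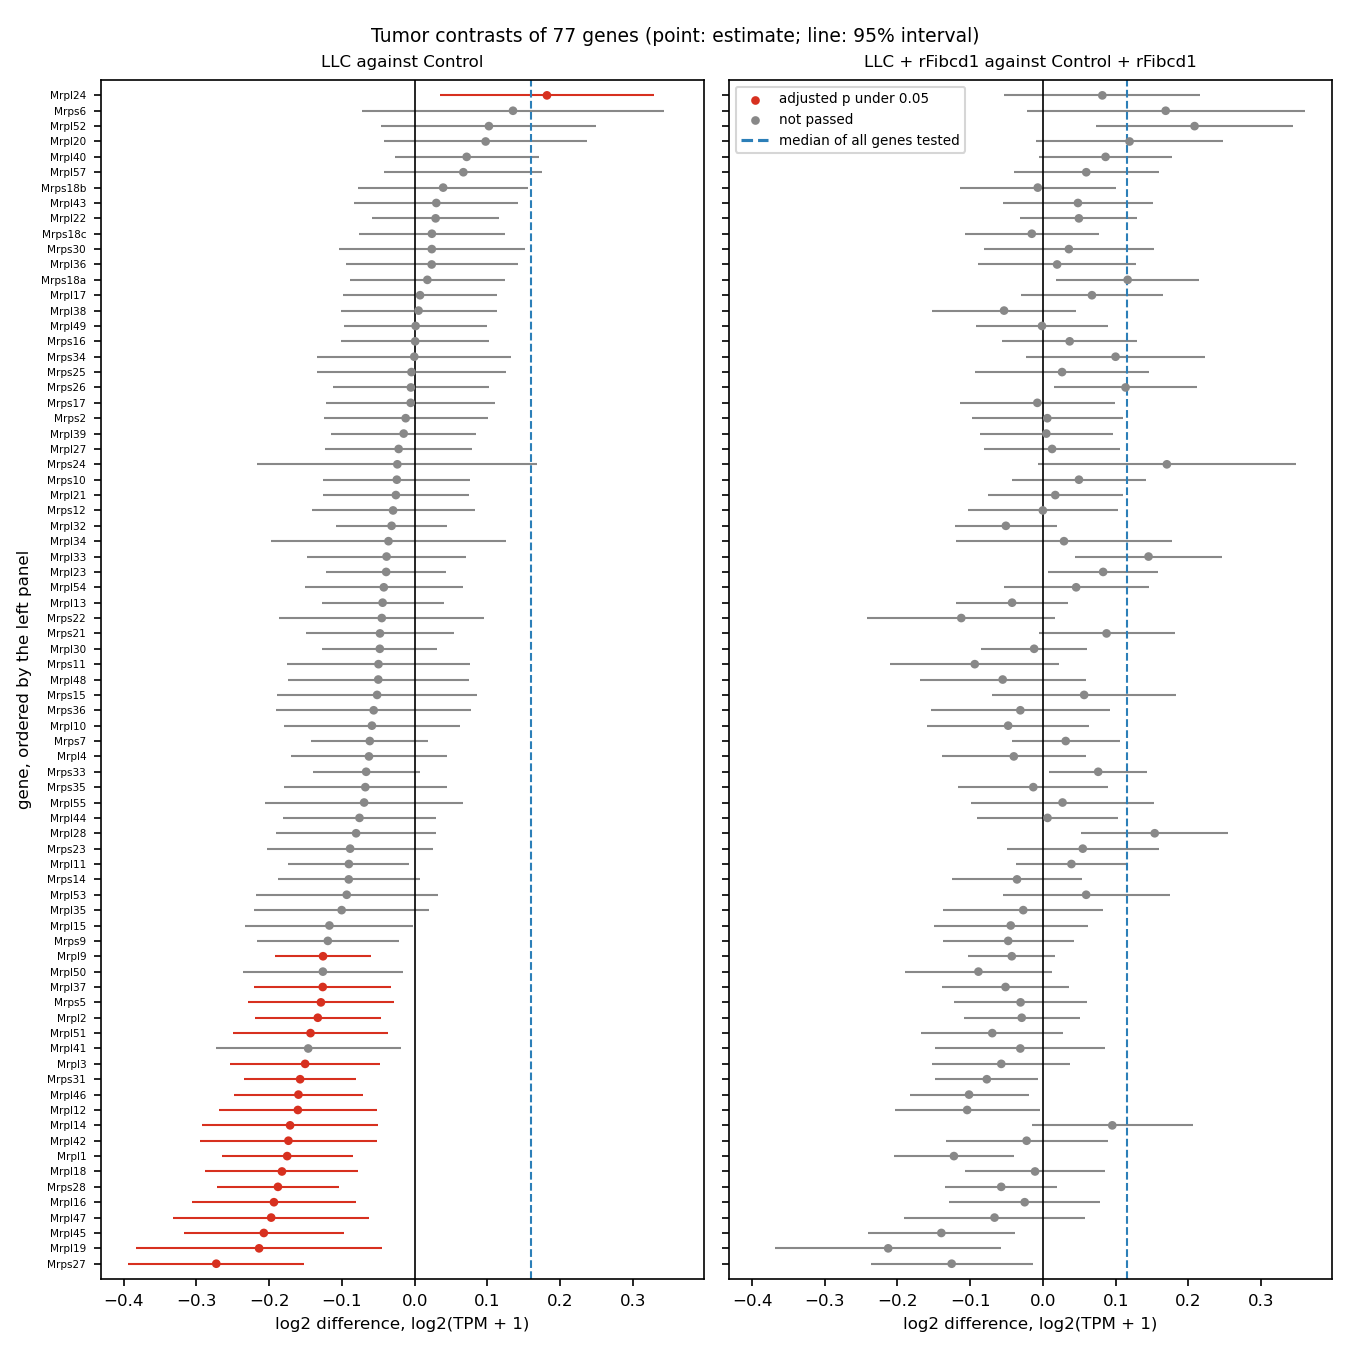
Log2 difference with its 95% interval for each of the 77 genes, in LLC against Control mice (left) and LLC + rFibcd1 against Control + rFibcd1 mice (right), in the order of the left panel, with the median of all genes dashed. Red marks an adjusted p under 0.05, which 20 genes reach on the left and 0 on the right, and the genes lowest on the left, such as Mrps27 at -0.27, stay below 0 on the right at -0.13.

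Over all tumor-bearing against all tumor-free mice (7 against 10), 18 of the 77 genes fell and 2 rose, where 5.98% of all genes fell and 38.8% rose. Of the 18 that fell, 16 were also among the 19 of LLC against Control, with which this comparison shares its mice. Mrpl19 had the largest fall, at -0.21 (SE 0.0527, adjusted p = 0.00651), and was at 7.19, 8.72, 9.45 and 8.84 TPM in LLC + rFibcd1 mice. Mrps27 followed at -0.19, then Mrpl45 at -0.17, Mrpl1 at -0.15, Mrpl46 and Mrpl47 at -0.13, and Mrpl12 and Mrps28 at -0.12. Mrpl52 (0.16, adjusted p = 0.0147) and Mrpl24 (0.12, adjusted p = 0.0383) were the genes that rose. At the study's heatmap cutoff, with p from limma, 0 of the 77 passed, against 7.56% of all genes.

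Among these, Mrpl1 passed in all 7 other settings and without each of the 17 mice. Mrpl24 turned to -0.0031 with median-ratio scaling and to -0.013 with quantile normalization, while it stayed positive, at 0.04, without mitochondrially encoded genes, and it passed under none of these 3. Without LLC replicate 3 the count of genes passing was 10 instead of 20, and it was 1 in the fit holding a B cell covariate. All genes went from 5167 higher and 796 lower to 3580 and 580 without that mouse and to 497 and 135 with the covariate. With median-ratio scaling, without mitochondrially encoded genes and with quantile normalization 46, 38 and 50 genes fell and 0 rose, while 2037, 1508 and 3325 of all genes fell. Of all genes that passed, 86.7% were higher on the TPM scale and 57.9%, 68.9% and 35.4% under these scalings.

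The comparison of LLC + rFibcd1 with LLC mice asks whether rFibcd1 shifts these transcripts in tumor-bearing mice. No gene of the set passed (limma, 0 of 77), where 0.0601% of all genes rose and 0.0526% fell. At an unadjusted p under 0.05, 16 were higher and 1 was lower, where 5.46% of all genes were higher and 17.3% lower. These counts moved with scaling, to 36 higher and 0 lower with median-ratio scaling, 27 and 0 without mitochondrially encoded genes, and 43 and 0 with quantile normalization. All genes went from 727 higher and 2298 lower to 1444 and 1396, 1116 and 1625, and 2105 and 791. Fewer of the 77 were higher in other settings, with 7 higher and 0 lower with the B cell score. With only the 2 groups compared it was 9 and 0, and with the replicate block 10 and 1. All genes then split into 497 higher and 414 lower, 611 and 1557, and 597 and 949. Dunn's rank test gave 0 after adjustment, with 13 higher and 0 lower at an unadjusted p under 0.05, where 422 of all genes were higher and 532 lower. The median of the 77 was 0.05, against -0.11 over all genes, and all 77 lay above the median gene on the TPM scale, while 6 lay below it with quantile normalization, 4 without a filter on low values, 3 with the B cell score and 1 without LLC + rFibcd1 replicate 3, LLC + rFibcd1 replicate 4 or LLC replicate 2. The levels did not overlap in 18 genes, all higher in LLC + rFibcd1, where 5.26% of all genes were higher and 9.3% lower without overlap. This contrast shares its LLC mice with LLC against Control, so a low value in those mice enters both.

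Mrpl14 had the smallest p. Its protein lies at the face where the subunits meet and is the binding site of the assembly factor Malsu1. It was at 116, 125 and 105 TPM in LLC and at 140, 128, 139 and 137 TPM in LLC + rFibcd1 mice. The groups did not overlap, and the difference was 0.24 (SE 0.0584, 95% interval 0.11 to 0.36, adjusted p = 0.124).

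Mrpl28 was at 89, 96.1 and 86.4 TPM in LLC and at 102, 96.3, 111 and 99.9 TPM in LLC + rFibcd1 mice, with a difference of 0.17 (adjusted p = 0.165). The groups of Mrpl28 nearly touched. Mrps33, a small-subunit protein, was at 48.2, 47 and 46.7 TPM in LLC and at 50.1, 52.3, 52.4 and 51.4 TPM in LLC + rFibcd1 mice (difference 0.12, adjusted p = 0.164). Mrpl18 differed by 0.16 (adjusted p = 0.166), at 129, 124, 136 and 129 TPM in LLC + rFibcd1 mice against at most 121 TPM in LLC mice.

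Among the 19 genes that had fallen in LLC against Control mice, 18 were higher in LLC + rFibcd1 than in LLC mice, with a median of 0.08, a count that the shared LLC mice link to the fall itself. Without LLC replicate 3 the median of the 77 was 0.03, and 5 instead of 16 genes were higher at an unadjusted p under 0.05, while all genes went from 727 higher and 2298 lower to 460 and 647. The difference between the tumor effects with and without rFibcd1 was tested by the interaction, in which 0 of the 77 genes passed (limma), as did 0% of all genes. At an unadjusted p under 0.05, 9 were above 0 and 0 below, where 5.98% of all genes were above and 2.6% below. That count of 9 was 4 without LLC replicate 3, where 617 of all genes were above and 179 below, and 14 without LLC replicate 1 or LLC + rFibcd1 replicate 2. It was 4 with median-ratio scaling, where all genes split into 641 above and 499 below, and 6 with quantile normalization, where they split into 1118 and 246, against 796 and 346 on the TPM scale. With the replicate block it was 6, where 670 of all genes were above and 180 below. The smallest p-values were those of Mrpl14 (0.27, adjusted p = 0.214), Mrpl28 (0.23, adjusted p = 0.227), Mrps33 (0.14, adjusted p = 0.292) and Mrpl33 (0.18, adjusted p = 0.404).

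The comparison of Control + rFibcd1 with Control mice gives the values for rFibcd1 without a tumor. In Control + rFibcd1 against Control mice 0 of the 77 genes passed (limma), as did 0% of all genes, and Dunn's rank test gave 0 as well. The median was -0.0081, against -0.06 over all genes, and its sign rests on the scale. It was 0.06 with median-ratio scaling (73 of 77 above 0), 0.03 with quantile normalization (58 above 0) and 0.0093 without mitochondrially encoded genes (44 above 0). It was 0.00018 without Control + rFibcd1 replicate 2 and 0.00063 without Control replicate 5. On the TPM scale 1 gene was lower at an unadjusted p under 0.05 by either test, where 4.07% of all genes were lower in limma and 301 of 13305 in Dunn's test. That gene was Mrps28, at 92.3, 96, 98, 94.9 and 98.7 TPM in Control + rFibcd1 mice, all below the Control mice (difference -0.08, 95% interval -0.15 to -0.0094, adjusted p = 0.927). The next were Mrpl32 at -0.06, Mrpl40 at -0.07 and Mrpl12 at 0.07, each with an adjusted p of 0.927.

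Other genes of the mitochondrial translation system were read from 6 lists of 79 genes chosen for their function. In LLC against Control mice 15 of them fell and 4 rose, where 6.02% of all genes fell and 29.7% rose. These calls rested on few mice, since 0 of the 79 passed without LLC replicate 3, with the B cell score, with the replicate block or with Dunn's rank test. Of all genes only 6 rose and 1 fell with the B cell score, 3 and 2 with the block, and 0 passed with Dunn's test. Without LLC replicate 1, 8 of the 79 fell and 1 rose, where 499 of all genes fell. Scaling moved the calls the other way, to 40 falls with median-ratio scaling, 35 without mitochondrially encoded genes and 60 with quantile normalization, with 1 rise in each. Falls over all genes went from 801 on the TPM scale to 1703, 1465 and 3175 under these scalings. The values below are on the TPM scale. Of 6 further proteins of the mitochondrial ribosome whose symbols do not follow the Mrp pattern, 2 fell in LLC against Control mice and 0 rose. They were Ptcd3, a small-subunit protein (-0.21, adjusted p = 0.012), and Gadd45gip1, a large-subunit protein (-0.17, adjusted p = 0.0407), while Chchd1 stood at -0.10 (adjusted p = 0.108). Ict1, the current Mrpl58, belongs here, since the table lists it under its older symbol.

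Of 15 translation factors and activators 4 fell and 1 rose in LLC against Control mice. Gfm1, the elongation factor that moves the ribosome along, was at 72.3, 71.5, 82.1, 80.9 and 85.9 TPM in Control and at 66.4, 66.6 and 60.2 TPM in LLC mice (-0.28, adjusted p = 0.00984). Taco1, an activator of Cox1 translation, fell by 0.31 (adjusted p = 0.0103), and Lrpprc, which stabilizes mitochondrial messages, fell by 0.26 (adjusted p = 0.0108). LLC and Control mice did not overlap for Gfm1. In the rFibcd1-injected mice 1 factor of this list passed, Mtrf1l, named after its value was seen, at -0.23 (adjusted p = 0.0482), a call that 18 of 26 other settings and left-out mice did not give.

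Of 26 assembly factors 3 fell and 1 rose in LLC against Control mice. The smallest p was that of Mpv17l2, which acts in assembly of the ribosome, and it rose by 0.26 (adjusted p = 0.00973), from 18.6 to 21.5 TPM in Control to 22.4 to 25.9 TPM in LLC mice. It was also the 1 factor of this list that passed in LLC + rFibcd1 against Control + rFibcd1 mice (0.19, adjusted p = 0.0332). Mpv17l2 did not pass under any of the 3 other scalings in either contrast, with adjusted p from 0.0555 to 0.39 in LLC against Control. Rnmtl1, a ribosomal RNA methyltransferase now named Mrm3, fell by 0.28 (adjusted p = 0.0241), and Spg7, a subunit of the protease that trims Mrpl32, fell by 0.12 (adjusted p = 0.0292). Of 17 mitochondrial aminoacyl-tRNA synthetases 0 passed in limma, with the smallest p for Aars2 (-0.16, adjusted p = 0.0501), Cars2 (-0.10) and Fars2 (-0.11). With median-ratio scaling 8 of the 17 fell, without mitochondrially encoded genes 5, and with quantile normalization 12. Over all genes 1703, 1465 and 3175 fell under these scalings, against 801 on the TPM scale.

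Of 6 genes of mitochondrial transcription and replication 4 fell, among them Mterf2 (-0.33, adjusted p = 0.0161), Tefm (-0.21, adjusted p = 0.0191) and Tfb2m (-0.16, adjusted p = 0.0241). Of 9 regulators 2 fell and 2 rose. Ppargc1a, a coactivator of mitochondrial genes, was at 14.8, 39.2, 33.6, 16.1 and 62.1 TPM in Control and at 10.4, 11.9 and 10.1 TPM in LLC mice (-1.34, SE 0.399, adjusted p = 0.0205), a wide spread in Control with all LLC mice below it. Esrra, a nuclear receptor that works with it, fell by 0.22 (adjusted p = 0.0168), and Myc rose by 0.92 (adjusted p = 0.0186). The other regulator that rose was Nrf1, the gene of the factor whose letters were searched above. It was at 2.36, 2.44, 2.23, 2.15 and 2.4 TPM in Control and at 2.7, 2.94 and 3.06 TPM in LLC mice. That call was not given by 14 of 26 other settings and left-out mice. In LLC + rFibcd1 against LLC mice 0 genes of all these lists passed (limma).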

How the data were processed

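RNA from 17 mouse diaphragms was sequenced, 1 library for each mouse. Per the labels and the study's methods, the authors aligned reads to GRCm38 with CLC Genomics Workbench and deposited TPM values per gene; the annotation release is not given in the sources used here. The labels and the methods name different library kits, so whether reads were counted by strand is not known. Levels between groups are shares of a fixed total of TPM.

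Groups were taken from the labels. log2(TPM + 1) was fitted with limma 3.58.1 in R 4.3.3, with all 4 groups in 1 model (13 residual degrees of freedom, trended variance, two-sided, no covariate), for the 13305 of 47643 genes that reached 1 TPM in 3 samples or more. P-values were adjusted by Benjamini-Hochberg over all genes tested, in 6 contrasts, and 95% intervals used the residual degrees of freedom. The script was tested on simulated data. The study's own test, Dunn's rank test, was an alternative, because its normal approximation is poor with 3 to 5 values a group. Other alternatives were another pseudocount (0.1 TPM), no filter, 3 scalings, a B cell score, a replicate block, only the 2 groups compared and leaving out each mouse. Replicate numbers did not pair the mice.

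Depth was estimated from the steps of low TPM values and gene lengths, with 80.8 to 83.6% of low values within 0.02 of a whole read, so no count test was run. Gene positions, overlaps and lengths came from GRCm38 annotation (94.7% of symbols matched).

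Genes named are the 8 highest and 4 lowest by level, up to 8 per direction with the largest change among those that passed in a contrast (or the 4 with the smallest p), a set with known roles or disease links, and up to 3 of each pathway list by p. Other genes are named to complete a count of those that passed or as the ends of a range (Mrpl30 and Mrps6), after their values were seen. Ict1 joined its list once the table's symbols were known. The genes and lists were chosen with earlier results of these data known. Pathway lists and cell markers are by function, and mice are the replicates.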

Additional observations from a re-analysis of the deposited data

Results flagged for a closer look

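Single mice stood apart from the rest of their group in 5 of 117 groups of values examined. These are the 38 genes of the set named by rule and the summed level of the 77 genes, in each of the 3 groups with 4 or 5 mice. Genes named only to complete a count or as the ends of a range were not examined. The measure was the gap to the nearest mouse over the group's range, and chance alone gives about 1 in 20. The LLC group, with 3 mice, was not examined. In Control + rFibcd1 replicate 2, Mrps22 was at 7.16 TPM against 7.72 to 7.85 TPM in the others of its group. The same mouse had Mrps33 at 46.3 TPM against 49.1 to 49.9 TPM, and Mrps18a at 23.5 TPM against 26.9 to 27.8 TPM. Its summed level of the 77 genes, 3929 TPM, was the lowest of its group. Mrpl47 was at 12.3 TPM in LLC + rFibcd1 replicate 1 against 13.9 to 14.2 TPM in the others. Mrps36 was at 101 TPM in Control replicate 5 against 85.8 to 89.3 TPM in the others. The cause of these values was not tested.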

How the results depend on the processing

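For LLC against Control, 20 genes passed in either direction, and this number was 40 with median-ratio scaling, 35 rescaled without mitochondrially encoded genes and 55 with quantile normalization. It was 0 with the B cell score as covariate, 0 with Dunn's rank test and 0 at the study's cutoff (an unadjusted p under 0.05 and a change beyond 1.5 times), and ranged from 0 to 21 when 1 mouse was left out. The median of the 77 differences was -0.202, -0.157 and -0.226 under the 3 scalings and -0.0804 to -0.0325 with 1 mouse left out. For LLC + rFibcd1 against Control + rFibcd1, the number was 2, 2 and 1 under the scalings and 0 to 2 with 1 mouse left out, and the median was -0.119, -0.0699 and -0.11 under the scalings and -0.0103 to 0.0111 with 1 mouse left out. For LLC + rFibcd1 against LLC, the median was 0.154, 0.112 and 0.162 under the scalings and 0.0254 to 0.0712 with 1 mouse left out. For tumor-bearing against tumor-free mice, 20 genes passed, and this number was 46, 38 and 50 under the scalings, 1 with the B cell score, 0 at the study's cutoff, and 10 to 23 with 1 mouse left out. Mrpl24 in that contrast reversed to -0.00309 with median-ratio scaling and -0.0125 with quantile normalization. The number stayed at 0 with 1 mouse left out in the other 3 contrasts. The cause of these shifts was not tested.

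Mice with the same replicate number did not deviate together (median r -0.061 over 22 pairs, 4 above 0.1, and 1 mouse best with its own number). With the replicate block, 0 of the 77 genes passed in LLC against Control, where only 3 higher and 2 lower of all 13305 genes passed. Between tumor-bearing and tumor-free mice 8 passed with the block, all of them lower, while most of all genes that passed there were higher. Only the 2 groups and Dunn's test gave no value for tumor-bearing against tumor-free mice and the interaction.

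The LLC group held 3 mice, which limits every comparison that uses it. TPM does not show a change in total RNA, and how far reads of antisense neighbours are included was not tested. B cell marker sums did not overlap between LLC and Control mice, so the B cell score and the tumor cannot be told apart in that comparison.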
